A study of Mus musculus with 6 samples.

Results

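Retinas of C57BL/6J mouse embryos at embryonic day 18.5 (E18.5), shortly before birth, were set against retinas at embryonic day 15.5 (E15.5) by sequencing the 3′ ends of polyadenylated RNA (PA-seq). They are 2 of the 6 samples of a series on poly(A) sites in retinal development, and they fill 4 of its 12 count columns, a first and a second column for each stage. The labels name no engineered allele and no treatment for either group. Sex, the number of embryos and whether retinas were pooled are not given in the sources used here. Each stage is 1 sample in the labels. What its columns stand for is not given, and they were treated as repeat measurements of it and not as replicates. No test was possible and no p-value is given. A difference was called only where it passed a fixed size in the first columns and again in the second columns.

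The embryonic retina is built from 1 pool of dividing progenitors that gives rise to its cell types in an overlapping order. Ganglion cells, horizontal cells, cones and early amacrine cells come first, and most rods, bipolar cells and Müller glia come later. Nearly all mRNAs end where the cleavage machinery cuts the transcript downstream of a poly(A) signal, a hexamer that is usually AATAAA or ATTAAA in DNA letters, and adds a poly(A) tail. A gene with several such sites can end at a proximal site, which gives a short 3′ UTR, or at a distal site, which gives a long one. The 3′ UTR carries sites for microRNAs and RNA-binding proteins, and neural tissue is known for long 3′ UTRs.

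The columns held 2496483 (first) and 2159670 (second) tags at E18.5, and 1966067 and 1895788 tags at E15.5, of which 96.9% to 97.2% fell in genes or within 1000 bases downstream of one. Among genes with at least 200 tags, the columns of a stage differed by 2-fold or more for 15 of 7084 genes at E18.5 and for 63 of 6171 genes at E15.5. Every one of these genes was higher in the first column. Of them, 6 at E18.5 and 21 at E15.5 were in the photoreceptor lists used below, and 51 of the 63 had their highest level of the whole series at P21. None of the genes called 2-fold higher below was among them and 1 gene called 2-fold lower was (Gnat1), as was Opn1sw, which is called at 1.5-fold only. Genes with fewer than 200 tags at a stage were not compared there. Called genes such as Dr1 (16 tags), Prss56 (15), Slc18a3 (24) and Nfix (31) were thus left out at E15.5. The E15.5 columns of Prss56, Slc18a3 and Nfix, given below, differed by more than 2-fold with the first higher, and those of Dr1 did not. Six3, an eye field gene that marks retinal progenitors, was present at both stages, at 461 and 454 CPM (TMM-scaled tags per 1000000) at E18.5 and at 453 and 515 CPM at E15.5. Lens and blood transcripts were present as well. The summed level of the 32 lens list genes with tags was 958 and 700 CPM at E18.5, against 4390 and 4761 CPM at E15.5. That of the 11 red blood cell genes with tags was 405 and 357 CPM against 893 and 839 CPM. Their part in the results was not tested.

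Abundance changed at least 2-fold in few genes, and more of them were higher than lower at E18.5. Of 11398 genes with at least 20 tags in the larger column of each pair, 317 were at least 2-fold higher at E18.5 in both columns (2.78%) and 107 were at least 2-fold lower (0.939%). At 1.5-fold, 797 genes were higher (6.99%) and 247 lower (2.17%). The median log2 ratio over all 11398 genes was -0.01. Of the called genes, 272 of the 317 and 95 of the 107 also passed 2-fold in all 4 ratios that can be formed between a column of E18.5 and a column of E15.5. Fold changes below come from the summed columns, with 95% intervals that cover counting error only. The intervals treat tags as independent, and since PCR reads are not independent molecules, they can be too narrow. For genes with at least 200 tags, the squared deviation between columns averaged 2.35 (E18.5) and 4.73 (E15.5) times the counting variance. Its medians were 0.49 and 0.65 times that variance. In bulk tissue, fewer cells of a type and less RNA per cell cannot be told apart.

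**Figure D1:**
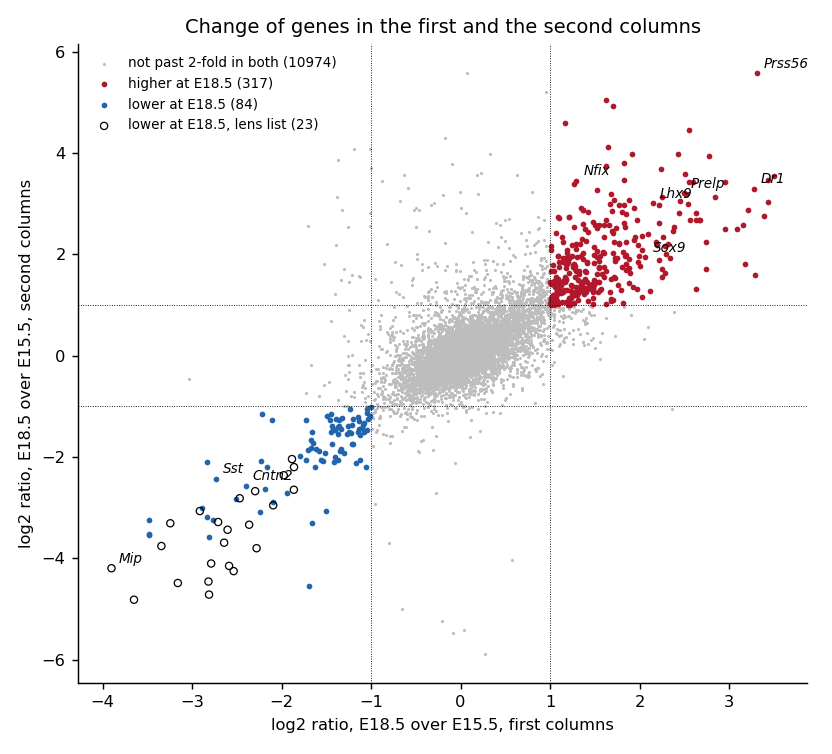
Each point is 1 of the 11398 genes, with its log2 ratio of E18.5 over E15.5 in the first columns on the x axis and in the second columns on the y axis; dotted lines mark 2-fold. The 317 genes higher at E18.5 lie in the upper right corner and the 107 lower genes in the lower left, with the 23 of the lens list as open circles.

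Among genes higher at E18.5 with a mean level of at least 20 CPM, the largest change in the less changed column was that of Prss56, a secreted serine protease gene linked to eye size. Prss56 had 73.2 and 78.2 CPM at E18.5, against 7.40 and 0.544 CPM at E15.5 (15 tags over both columns). The columns of the stages were far apart, and the ratio was 18.8-fold (interval 11.2 to 33.9). Dr1, a repressor that binds the TATA-binding protein, stood at 40.9 and 42.9 CPM at E18.5, against 4.23 and 4.35 CPM at E15.5, 9.75-fold higher (5.85 to 17.4). Prelp, a proteoglycan of the extracellular matrix, had 104 and 85.3 CPM at E18.5 and 18.5 and 9.25 CPM at E15.5, 6.86-fold higher (5.13 to 9.33). Klhl9, an adaptor of a ubiquitin ligase, was 6.72-fold higher (4.53 to 10.3), and Mex3d, an RNA-binding protein, was 6.54-fold higher (4.44 to 9.99). Ciao2a, which takes part in cytosolic iron-sulphur protein assembly, was 7.88-fold higher (5.73 to 11.1). Nol4 was 6.44-fold higher (4.27 to 10.1), and Tnnt2, the cardiac form of troponin T, 4.65-fold higher (3.18 to 6.99). For each of these 8 genes both columns of E18.5 were above both columns of E15.5, which the rule that chose them makes likely.

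The 3′ ends of the higher genes were poor in G and C. Over the last 200 transcript bases before the strongest site, the 281 of the 317 higher genes with annotated sequence there had a median GC content of 30%, against 47.5% in 90 of the 107 lower genes and 41.5% over all genes. When all genes were divided into 5 bins of similar size by this value, the lowest-GC bin (33.5% or less) held 188 of the 281, and 8.24% of its 2281 genes were called higher. In the other bins between 0.818% and 1.39% were called higher. Of the genes named above, Dr1 (26%), Klhl9 (28.5%) and Mex3d (25%) were in the lowest-GC bin. Prss56 (47%), Prelp (45%) and Tnnt2 (54.5%) were not. The median log2 ratio was 0.21 in the lowest-GC bin, with 0.19 for the first and 0.22 for the second columns, and between -0.06 and 0.00 in the others. The share called lower ran the other way, at 0.482% in the lowest-GC bin and 1.49% in the highest. Whether base composition has a part in the higher calls was not tested. Above the lowest-GC bin, 93 of 8325 genes were higher (1.12%) and 79 were lower (0.949%).

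The last 30 bases before the strongest site are printed for 4 genes, to show ends of higher genes from the lowest-GC bin (Dr1, Klhl9) beside ends of a higher and a lower gene outside it. They are from GENCODE M21 transcripts on GRCm38, written 5′ to 3′ on the transcript strand, with the poly(A) signal in capitals.
Dr1, higher, GC content 26% (chr5:108280494-108280523, plus strand): ttcaagcAATAAAattctgatgtgttttat
Klhl9, higher, GC content 28.5% (chr4:88718293-88718322, minus strand): ctctttatatAATAAAattacttaactgat
Prss56, higher, GC content 47% (chr1:87188375-87188404, plus strand): ggctgctttAATAAAtgttatttatactct
Capn3, lower, GC content 47.5% (chr2:120504881-120504910, plus strand): atctaAATAAAggcacacacatggctagtt
All 4 ends hold AATAAA. Among 23136 sites in annotated exons, AATAAA lay in the 40 bases before the site in 56.8%, and ATTAAA without AATAAA in 16.7%, searched on the transcript strand only. The GC contents are those of the last 200 bases, of which the printed bases are a part.

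Levels of the higher genes over the 6 stages are given next. E18.5 lies above E15.5 by the rule that chose the genes. From E13.5 through E15.5, E18.5, birth (P0), P6 and P21, the 188 higher genes of the lowest-GC bin had median levels of 15.2, 8.91, 27.7, 12.5, 17.3 and 14.4 CPM. At the 4 stages that the rule did not use, their medians thus lay between 12.5 and 17.3 CPM. The 93 higher genes above that bin had medians of 5.37, 8.77, 26.0, 20.3, 21.6 and 22.3 CPM in the same order of age, so at the unused stages they stood at 5.37 CPM before E15.5 and at 20.3 CPM or more after birth. Over all genes of the lowest-GC bin, the median log2 level relative to the mean of the 12 columns was 0.17 and 0.09 in the E13.5 columns, -0.02 and -0.14 in the E15.5 columns, 0.17 and 0.10 in the E18.5 columns, and -0.01 and -0.11 in the P0 columns.

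**Figure D2:**
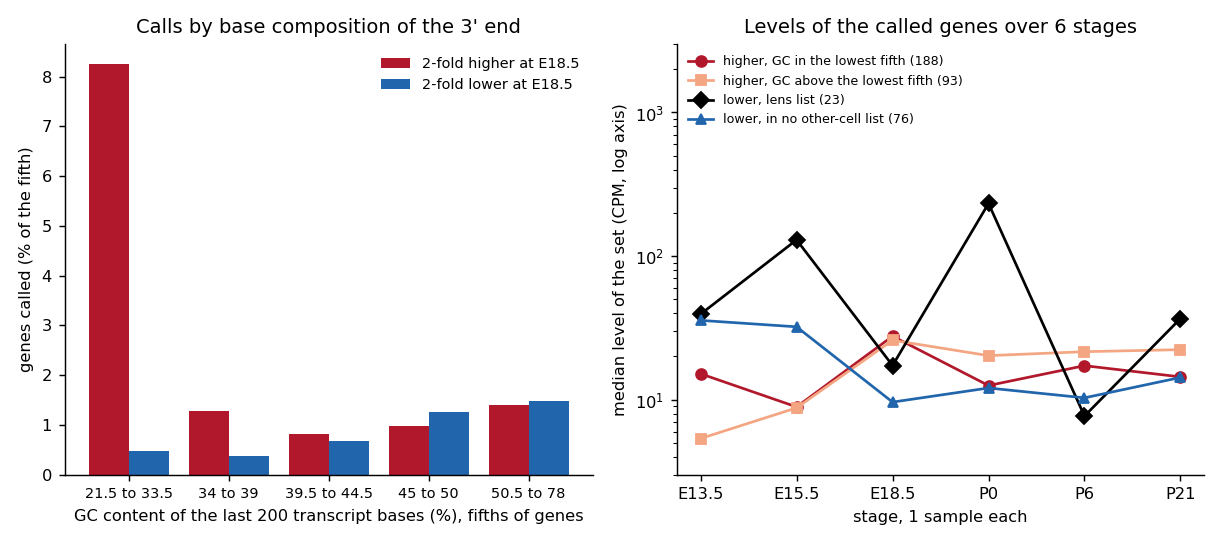
Left, the percentage of genes called 2-fold higher (red) or lower (blue) at E18.5 in each of 5 bins of genes by GC content of the last 200 transcript bases. Right, the median level in CPM (log axis) of 4 sets of called genes at 6 stages with 1 sample each; the order of E18.5 and E15.5 is set by the calls, and at the other stages the 188 low-GC higher genes lie between 12.5 and 17.3 CPM and the 93 others between 5.37 and 22.3 CPM.

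Of the 93 higher genes with a GC content above the lowest-GC bin, the 6 that follow were chosen after their values were seen. Kcnj10, a potassium channel of Müller glia, had 24.1 and 20 CPM at E18.5, against 7.92 and 4.90 CPM at E15.5, 3.46-fold higher (2.2 to 5.64). Npy, a neuropeptide, had 67.1 and 72.5 CPM at E18.5, against 21.7 and 2.18 CPM at E15.5. Its columns at E15.5 were far apart, and both lay below those of E18.5. Megf10, an engulfment receptor that also spaces amacrine and horizontal cells in the mouse retina, was 2.84-fold higher (2.28 to 3.55), and Adcy2, an adenylyl cyclase, 3.39-fold higher (2.65 to 4.36). Col9a3, a collagen chain, was 3.29-fold higher (2.64 to 4.15) and Hkdc1, a hexokinase-like protein, 2.61-fold higher (2.19 to 3.13).

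Of the 107 lower genes, 31 were in the lists of other cells, 23 of them in the lens list, and 76 were in none of these lists. Among those of the 76 with a mean level of at least 20 CPM, the largest change in the less changed column was that of Capn3. Capn3 is a calpain protease with a known form in the rodent lens. Capn3 had 6.54 and 6.67 CPM at E18.5, against 72.9 and 77.3 CPM at E15.5, 11.4-fold lower (7.78 to 17.2), and its levels over the 6 stages in order of age were 41.0, 74.5, 6.49, 35.4, 3.23 and 6.26 CPM. The 23 lower lens genes, described below, had medians of 39.4, 129.8, 17.3, 232.6, 7.70 and 36.7 CPM, so at the stages that the calls did not use both were above their E18.5 level at E13.5 and P0. Sst, the neuropeptide somatostatin, had 5.73 and 8.10 CPM at E18.5, against 38 and 43.5 CPM at E15.5, 5.97-fold lower (4.04 to 9.09). Cntn2, an axonal adhesion molecule of the contactin family, stood at 64.6 and 66.3 CPM at E18.5, against 342 and 392 CPM at E15.5, 5.60-fold lower (4.94 to 6.37). Both genes were within 1.5-fold between the columns of a stage, and Cntn2 stayed at 57.6 CPM or less from P0 on.

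Among lower genes outside the other-cell lists with a mean of at least 20 CPM, the others of the 10 most changed covered several roles. Igfbpl1, an insulin-like growth factor binding protein-like gene, had 106 and 99.6 CPM at E18.5 and 317 and 365 CPM at E15.5, 3.31-fold lower (2.97 to 3.68). Eya2, a transcriptional coactivator with phosphatase activity, had 34.4 and 39.1 CPM at E18.5 and 109 and 123 CPM at E15.5, 3.18-fold lower (2.65 to 3.82). Ccer2 was 4.94-fold lower (3.64 to 6.80), Pmfbp1 3.74-fold (2.63 to 5.40), Copz2, a coatomer subunit, 3.43-fold (2.46 to 4.85), and Chst15, a chondroitin sulphate sulphotransferase, 3.23-fold (2.53 to 4.17). Sites of Chst15 overlap another coding gene, so its tags are less certain. Trpm1, a cation channel of ON bipolar cells and pigmented cells, had 15.5 and 2.86 CPM at E18.5 and 49.1 and 28.3 CPM at E15.5, 4.01-fold lower over the summed columns (2.85 to 5.76). Without sites in the downstream flanks its summed log2 ratio was -1.97, close to that with them, but it did not pass 2-fold in both columns. The next 3 lower genes were chosen after their values were seen. Fgf3, a fibroblast growth factor, was 2.61-fold lower (2.32 to 2.95), Dio3, which inactivates thyroid hormone, 2.46-fold (2.17 to 2.79), and Crabp2, a retinoic acid binding protein, 2.37-fold (2.00 to 2.82). The 76 genes had median levels of 35.7, 32.2, 9.62, 12.1, 10.3 and 14.3 CPM over the 6 stages in order of age, so at the unused stages it was high at E13.5 and at 14.3 CPM or less after birth.

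Gene lists of the retina are described next by their counts past each rule and by their median log2 ratio, beside the median of -0.01 over all genes. Members past 1.5-fold but not 2-fold are named because they passed it, after their values were seen.

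Amacrine and horizontal cell genes had the highest median among the 20 retina lists. Of the 24 genes that passed the filter, 4 were 2-fold higher at E18.5 and 1 was lower, and 11 were higher and 1 lower at 1.5-fold. The 11 are 45.8% of the list, beside 6.99% of all genes. The median was 0.68, with 0.29 for the first and 1.04 for the second columns. Lhx9, a homeobox gene of amacrine subtypes, had 65.4 and 65.8 CPM at E18.5, against 14.8 and 8.16 CPM at E15.5, 5.69-fold higher (4.12 to 8.03). Tfap2c, one of the AP-2 transcription factors of amacrine cells, stood at 72.8 and 79.1 CPM, against 24.8 and 23.9 CPM, 3.10-fold higher (2.46 to 3.96). Its relatives Tfap2a and Tfap2b were 1.93-fold (1.68 to 2.23) and 2.06-fold (1.81 to 2.35) higher. Slc18a3, the vesicular acetylcholine transporter of cholinergic (starburst) amacrine cells, had 33.1 and 38.1 CPM at E18.5, against 10.6 and 2.18 CPM at E15.5. Its sites overlap another coding gene on the same strand, so its tags are less certain. Gad2, a GABA-synthesising enzyme, was 1.59-fold higher (1.36 to 1.87). Neurod2, a bHLH factor, had 41 and 33 tags at E18.5, against 11 and 0 tags at E15.5, so both columns were higher but the E15.5 level rests on few tags. Calb2 (calretinin), Bhlhe22 and Barhl2 were also among the higher members. Nhlh1, a bHLH factor of newly born neurons, went the other way, with 13.9 and 12.9 CPM at E18.5 and 37.0 and 55.0 CPM at E15.5, 3.41-fold lower (2.53 to 4.65). Of the 24 genes, 23 had a GC content, with a median of 42% and 8 in the lowest-GC bin. Lhx9 (33%) was among the 8, and Tfap2c (42%) and Neurod2 (48%) were not.

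Late progenitor and glial factors were higher or did not pass. Of 18 genes, 2 were 2-fold higher (11.1%, beside 2.78% of all genes) and 6 were 1.5-fold higher (33.3%, beside 6.99%). None was lower at either size, beside 0.939% and 2.17% of all genes, and the median was 0.23. Of the 17 with a GC content, 4 were in the lowest-GC bin, with Sox8 (33.5%) among them and Nfix (54%) not. Sox8, an SRY-box factor of glia, had 91.2 and 93.9 CPM at E18.5, against 30.1 and 32.1 CPM at E15.5, 2.97-fold higher (2.42 to 3.69). Nfix, a nuclear factor I gene known for late progenitor competence, had 32.3 and 35.8 CPM at E18.5 and 13.2 and 3.26 CPM at E15.5, 4.08-fold higher (2.76 to 6.21). Its relatives Nfia, 1.88-fold (1.52 to 2.33), and Nfib, 1.82-fold (1.53 to 2.17), passed 1.5-fold. Car2, a carbonic anhydrase of Müller glia, and Crym passed it too. All 6 genes were higher in both columns of E18.5 than in both columns of E15.5, which the 1.5-fold rule makes likely. Of 2 astrocyte markers that passed the filter, Gfap had 21 and 23 tags at E18.5 and 7 and 0 tags at E15.5, and Slc1a2, a glutamate transporter, had 96.5 and 73.9 CPM and 63.9 and 30.5 CPM.

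Early neurogenic and ganglion cell fate genes were more often lower. Of 23 genes, none was 2-fold higher and 3 were lower, 2 were higher and 6 lower at 1.5-fold (26.1%, beside 2.17% of all genes), and the median was -0.20. Eya2, described above, belonged to them. Irx2, an Iroquois homeobox gene, had 47.4 and 45.8 CPM at E18.5, against 120 and 125 CPM at E15.5, 2.62-fold lower (2.22 to 3.10). Dlx1, a homeobox gene of early ganglion and amacrine precursors, had 29.9 and 25.3 CPM at E18.5 and 73.4 and 95.8 CPM at E15.5, 3.04-fold lower (2.47 to 3.77). Atoh7, the bHLH factor that ganglion cell formation requires, was 2.14-fold lower over the summed columns (1.97 to 2.32) and missed 2-fold in the first columns, with 206 and 185 CPM at E18.5 and 406 and 433 CPM at E15.5. Ebf3 and Onecut2 were 1.80-fold and 1.83-fold lower. Irx5, at 51.1 CPM against 24.7 CPM over summed columns, and Pou4f2, the Brn3b factor of ganglion cells, at 17.4 CPM against 8.04 CPM, were higher.

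Genes of maturing ganglion cells did not move together. Of 19 genes none passed 2-fold, and 4 were higher and 1 was lower at 1.5-fold. These are 21.1% and 5.26% of the list, beside 6.99% and 2.17% of all genes. The median was -0.34. Opn4, the melanopsin photopigment of intrinsically photosensitive ganglion cells, had 33.5 and 42.0 CPM at E18.5, against 17.4 and 21.8 CPM at E15.5, 1.91-fold higher (1.45 to 2.55). The nicotinic receptor subunits Chrna6 and Chrnb3 were 2.41-fold (1.73 to 3.41) and 2.10-fold (1.56 to 2.86) higher, and Thy1, a surface glycoprotein of ganglion cells, had 86.7 and 113 CPM, against 47.5 and 16.9 CPM. Elavl4, a neuronal RNA-binding protein, was 1.70-fold lower (1.5 to 1.92). The abundant members Stmn2, a microtubule regulator, and Tubb3, a neuronal tubulin, did not pass, with log2 ratios of -0.38 and -0.55. Sites of Tubb3 overlap another coding gene.

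Of 25 progenitor genes, 1 was 2-fold higher and 1 lower, and 3 were higher and 3 lower at 1.5-fold (12% each, beside 6.99% and 2.17% of all genes). The median was -0.08. Sox9, an SRY-box factor of progenitors and Müller glia, had 97.3 and 103 CPM at E18.5, against 23.2 and 26.7 CPM at E15.5, 4.01-fold higher (3.20 to 5.07). Its GC content was 30.5%, within the lowest-GC bin. Foxp1, a forkhead factor of early progenitors, had 55.2 and 64.4 CPM and 142 and 156 CPM, 2.50-fold lower (2.16 to 2.90). Pax6 was 1.97-fold (1.80 to 2.16) and Meis2 2.57-fold (2.2 to 3.01) higher, both with a GC content in the lowest-GC bin, while Fgf15, a growth factor of progenitors, was 1.58-fold (1.46 to 1.70) and Lin28b, an RNA-binding protein of early development, 2.06-fold (1.27 to 3.38) lower. Of 33 cell cycle and DNA replication genes, none passed 2-fold or 1.5-fold in either direction, and the median was 0.06. Ccna2, cyclin A2, stood at 389 and 391 CPM at E18.5 and at 318 and 335 CPM at E15.5, a log2 ratio of 0.26, and Top2a, topoisomerase II alpha, had a log2 ratio of 0.19.

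The columns disagreed in the phototransduction list. Of 31 rod and cone phototransduction genes listed, 30 had tags. Their summed level was 3834 and 2201 CPM at E18.5, against 6774 and 1128 CPM at E15.5. The median log2 ratio of the 17 that passed the filter was -0.50 for the first and 1.43 for the second columns. No direction can thus be given for the list. Gnat1, rod transducin, was the only list member called lower, with 167 and 6.67 CPM at E18.5 and 421 and 23.9 CPM at E15.5, and its columns differed by more than the stages did. Gnb1, the beta subunit of rod transducin, did not pass, with a log2 ratio of -0.33. Cone genes had closer columns at E18.5: Opn1sw, the short-wavelength cone opsin, had 252 and 241 CPM at E18.5 and 130 and 6.53 CPM at E15.5, and Gngt2, the cone transducin gamma subunit, had 387 and 420 CPM against 251 and 178 CPM, 1.87-fold higher (1.72 to 2.03). Of 20 photoreceptor fate genes none passed 2-fold and 2 passed 1.5-fold, both higher (10%, beside 6.99% of all genes). These were Prdm1, which favours photoreceptor over bipolar fate, with 95.3 and 88.2 CPM against 48.1 and 58.8 CPM, and Cngb3, a cone channel subunit. The columns differed in the fate list too. Its median was 0.26 summed, with 0.06 for the first and 0.58 for the second columns, and 11 of the 20 genes changed the same way in both. Its summed level was 3235 and 2785 CPM at E18.5, against 3483 and 1901 CPM at E15.5. Crx and Rorb, transcription factors of photoreceptor precursors, had log2 ratios of 0.20 and 0.05. Of 8 bipolar genes that passed the filter, of 19 listed, Trpm1 was lower and none was higher, and the median was -0.45 for the first and 0.31 for the second columns. Isl1, a homeobox gene shared with ganglion and amacrine cells, had a log2 ratio of -0.53.

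Of 31 synapse genes none passed 2-fold and 1, Rims1, an active zone protein, was 1.5-fold higher (3.23%, beside 6.99% of all genes). The median was 0.21 summed, with 0.07 for the first and 0.45 for the second columns, and 20 of the 31 changed the same way in both. The summed level was 3370 and 3274 CPM at E18.5, against 3492 and 2358 CPM at E15.5. Vamp2, a vesicle SNARE, and Cplx2, a complexin, had log2 ratios of 0.18 and 0.08. Of 24 axon growth and guidance genes, Cntn2 was 2-fold lower and none was higher, and 3 were higher and 2 lower at 1.5-fold (12.5% and 8.33%), with a median of -0.02. Ephb2, an ephrin receptor, had 369 and 357 CPM at E18.5 and 394 and 415 CPM at E15.5 and did not pass. Of the related receptors, 3 passed 1.5-fold. Epha4 had 62.2 and 55.8 CPM at E18.5, against 31.7 and 25.6 CPM at E15.5, and Epha3 and Epha5 were 2.18-fold (1.37 to 3.57) and 1.56-fold (1.22 to 1.99) higher. Their ligand gene Efna5 was 1.68-fold lower (1.15 to 2.47). Of 20 Notch and Wnt genes, Rspo2, a secreted Wnt enhancer, was 6.78-fold (4.02 to 12.2) and Maml1, a Notch coactivator, 5.17-fold (2.64 to 11.3) higher, while Jag1, a Notch ligand, had 13.1 and 6.20 CPM at E18.5 and 35.4 and 20.7 CPM at E15.5, 2.84-fold lower (1.99 to 4.12). Rspo2 had 16 tags and Maml1 10 tags at E15.5 over both columns. The GC content was 30% for Maml1 and 31.5% for Jag1, both in the lowest-GC bin. The Notch effectors Hey2 and Heyl passed 1.5-fold, both higher. At that size 20% of the list was higher and 5% lower, beside 6.99% and 2.17% of all genes.

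Of 25 cleavage and polyadenylation genes, 2 were 2-fold higher (8%, beside 2.78% of all genes) and none was lower, with a median of 0.02. Papolg, a poly(A) polymerase, had 25.4 and 25.3 CPM at E18.5, against 3.70 and 1.63 CPM at E15.5, 9.45-fold higher (4.95 to 20.2). Ppp1cb, a phosphatase subunit found with the machinery, had 149 and 138 CPM against 66.0 and 36.5 CPM, 2.80-fold higher (2.38 to 3.31). Both have a GC content in the lowest-GC bin, 29% and 27%. Of 39 neural RNA-binding protein genes none passed 2-fold, and 3 were higher and 2 lower at 1.5-fold (7.69% and 5.13%, beside 6.99% and 2.17% of all genes). The lower pair were Igf2bp1, with 94.9 and 112 CPM at E18.5 and 175 and 187 CPM at E15.5, and its relative Igf2bp3, 1.59-fold lower (1.41 to 1.80), both mRNA-binding proteins of embryonic tissue. The higher genes were Rbfox1, Pum2 and Qk. The abundant members Ptbp1 and Hnrnpk, both regulators of splicing, had log2 ratios of -0.11 and 0.21.

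In the following lists the counts are small, and so are the shares of all genes. Those are 2.78% higher and 0.939% lower at 2-fold, and 6.99% and 2.17% at 1.5-fold. Of 39 ribosomal protein genes none passed 2-fold and 1, Rps3, was 1.5-fold lower, with a median of -0.12, and 23 of the 39 had a log2 ratio below 0 in both columns. Rpl14 and Rpl4 both had a log2 ratio of -0.29. Of 29 oxidative phosphorylation genes, Ndufs1, a complex I subunit with a GC content of 27.5%, was 3.42-fold higher (2.72 to 4.33) and none was lower. Of 24 glycolysis and low-oxygen genes, Vegfa, the vascular growth factor, had 89.2 and 95.4 CPM at E18.5, against 44.4 and 44.6 CPM at E15.5, 2.07-fold higher (1.72 to 2.49), and Egln3, an oxygen-sensing prolyl hydroxylase, was 2.15-fold higher (1.64 to 2.84). The GC content was 28% for Vegfa, within the lowest-GC bin, and 38.5% for Egln3. Of 14 heterochronic and imprinted genes, none passed 2-fold and 2 were 1.5-fold lower (14.3%), Igf2bp1 and the cell cycle inhibitor Cdkn1c. The imprinted genes Ndn and H19 had log2 ratios of -0.00 and 0.03. Of 32 cilia genes none passed 2-fold, and Bbs5, Lca5 and Mak were 1.5-fold higher. The abundant transport proteins Unc119 and Arl3 had log2 ratios of -0.21 and -0.28. Of 6 immediate early genes none passed either size, with Btg2 at 0.19 and Jund at -0.06.

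**Figure D3:**
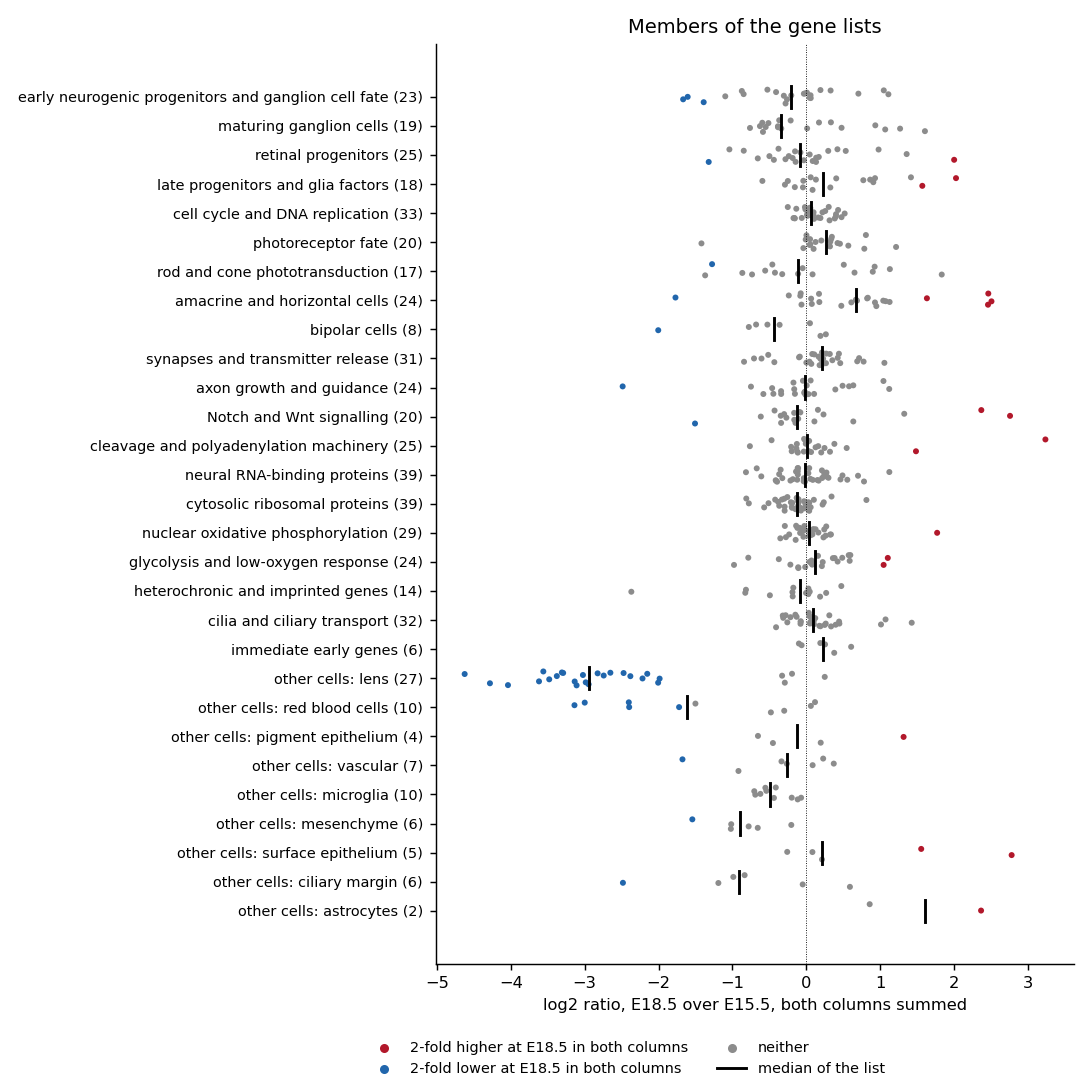
Each point is a gene of a list that passed the filter (number in brackets), placed by its log2 ratio of E18.5 over E15.5 from summed columns; red and blue points passed 2-fold higher or lower in both columns, and the bar is the list's median. The amacrine and horizontal cell list has a median of 0.68, and the lens list one of -2.95.

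Among the lists of other cells, those of lens and red blood cells had the largest shares of genes lower at 2-fold. Of 27 lens genes, 23 were 2-fold lower and none was higher, with a median of -2.95. Mip, the lens water channel, had 16.0 and 14.3 CPM at E18.5, against 238 and 262 CPM at E15.5, 16.4-fold lower (12.9 to 21.3). Bfsp2, a beaded filament protein of lens fibres, was 24.7-fold lower (11.7 to 62.5), and Foxe3, a lens epithelium forkhead factor, 11.8-fold (6.66 to 22.8). Cryaa, alpha-A crystallin, had 145 and 123 CPM against 571 and 628 CPM. Gja3, a lens connexin, had no tag at E18.5 and 22 and 26 tags at E15.5. Tags of the near-identical gamma crystallins can be shared among them. Of 10 red blood cell genes 5 were lower and none was higher, among them Alas2, the erythroid haem synthesis enzyme, 8.81-fold (5.28 to 15.6), and Slc4a1, the band 3 anion exchanger, 8.0-fold (3.59 to 21). Globins such as Hbb-bt, 5.27-fold lower (4.47 to 6.25), resemble each other, so their tags are less certain.

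The other lists held few genes past the filter. Beside their counts, the shares of all genes were 2.78% higher and 0.939% lower at 2-fold, and 6.99% and 2.17% at 1.5-fold. Of 6 mesenchyme genes 1 was 2-fold and 4 were 1.5-fold lower. The summed level of the 11 listed genes with tags was 301 and 284 CPM at E18.5 against 459 and 469 CPM at E15.5. The gene past 2-fold was Col1a2, a collagen chain, with 19 and 9 tags at E18.5 and 33 and 34 tags at E15.5. Of 6 ciliary margin genes, Gja1, a gap junction protein, was 5.59-fold lower (3.50 to 9.31), and 3 passed 1.5-fold, all lower. Of 7 vascular genes 1, the endothelial receptor Tie1, was lower, with 4.09 and 2.86 CPM at E18.5 and 10.6 and 12 CPM at E15.5, while Kdr, a vascular growth factor receptor, stood at 257 and 264 CPM and 209 and 192 CPM. Of 10 microglia genes none passed 2-fold, with a median of -0.49. Of 5 surface epithelium genes the keratins Krt15, 2.94-fold (2.02 to 4.39), and Krt19, 6.88-fold (3.30 to 16.6), were higher. Of 4 pigment epithelium genes Rrh, peropsin, was 2.49-fold higher (1.6 to 4.01), and Trpm3 had a log2 ratio of 0.20. Of the 17 pigment epithelium genes listed, 11 had tags at both stages, and 6, Rpe65 and Tyr among them, had no site given to them and so have no level. What share of any retina list comes with these cells was not tested.

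Poly(A) site choice was described for 4142 genes with 2 major sites. For each gene the 2 sites with the most tags were paired, and the percentage of their tags at the 3′-most one is called the distal share. The median distal share was 61.3% at E18.5 and 60.1% at E15.5, and the median change was 0.25 points, with 0.06 for the first and 0.46 for the second columns. In both columns the distal share was at least 15 points higher at E18.5 for 63 genes (1.52%) and at least 15 points lower for 31 genes (0.748%). The site kinds used by all tags hardly differed: 85.0% of tags at E18.5 and 85.2% at E15.5 lay in 3′ UTRs, and 1.78% and 1.70% in introns. Both sites lay in annotated 3′ UTRs for 50 of the 63 pairs, for 25 of the 31 and for 72.0% of all pairs, and the median distance between the sites was 989, 769 and 909 bases in the same order.

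The ends of 3 pairs that moved to the distal site and of 3 that moved to the proximal site are printed to show the competing signals. Sequences are the last 30 transcript bases before the cut (GENCODE M21, GRCm38), 5′ to 3′, with AATAAA or ATTAAA in capitals where the printed bases hold one.
Psip1 distal (chr4:83455681-83455710, minus strand): aattgttttaATTAAAgttttttctaccaa
Psip1 proximal (chr4:83461878-83461907, minus strand): acgaaaattttaaAATAAAgtttttttaaa
Tipin distal (chr9:64304764-64304793, plus strand): tttataaagaAATAAAttattttgtaagca
Tipin proximal (chr9:64304589-64304618, plus strand): aaaatacagtgactatttaaattgtttcct
Qk distal (chr17:10206554-10206583, minus strand): attttAATAAAtgttataataccaacctac
Qk proximal (chr17:10210185-10210214, minus strand): ttgaaaaagcAATAAAcatttattgaacaa
Ppp1cb distal (chr5:32493683-32493712, plus strand): ttgagcaAATAAAatgagttttttgattgg
Ppp1cb proximal (chr5:32492723-32492752, plus strand): ttctcatttagtaaaagttgtctaattgat
Rchy1 distal (chr5:91949000-91949029, minus strand): tgtAATAAAttactaatgaaattgtactga
Rchy1 proximal (chr5:91949289-91949318, minus strand): ttcttATTAAAatctaattacgtgtgcttc
Zic1 distal (chr9:91358061-91358090, minus strand): gttATTAAAatgttattttgtgtcaacaga
Zic1 proximal (chr9:91360500-91360529, minus strand): tcgtacgttATTAAAgattcttaaatctca
AATAAA lay in the 40 bases before 46% of the distal and 56% of the proximal sites of the 50 distal-moving pairs searched, and before 64% and 36% of those of the 25 proximal-moving pairs. Over all 3159 pairs searched the shares were 66.7% of distal and 51.3% of proximal sites.

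The pairs with the largest moves to the distal site belonged to genes of varied roles. Psip1, a chromatin-bound coactivator also known as LEDGF, had distal shares of 59.5% and 61.6% at E18.5, against 18.8% and 16.8% at E15.5. Its sites lie 6197 bases apart, and the summed share moved by 42.7 points. Tipin, a protein of the replication fork that was also 2-fold higher in abundance, had 67.5% and 65.2% at E18.5 and 31.9% and 27.6% at E15.5. Kdm5a, a histone demethylase, had 56.1% and 52.0%, against 20.6% and 11.1%. Qk, the quaking RNA-binding protein of neural cells, had 53.1% and 47.1% at E18.5 and 19.4% and 10.6% at E15.5, at sites 3631 bases apart. In these 4 genes both columns of E18.5 lay above both columns of E15.5, which the rule that chose them makes likely. Stox2, Tgoln1, a trans-Golgi membrane protein, Tmx3, a thioredoxin-related membrane protein, and Zfp608 completed the 8 genes with the largest moves, with summed moves of 39.3, 34.8, 35.3 and 31.5 points.

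Moves to the proximal site were led by Ppp1cb, which was also 2-fold higher in abundance. Its distal share was 24.1% and 24.5% at E18.5, against 59.5% and 76.3% at E15.5. Rchy1, a ubiquitin ligase, had 22.3% and 26.2% at E18.5 and 56.5% and 64.1% at E15.5. Rnf2, a Polycomb ubiquitin ligase, had 49.7% and 49.0% at E18.5, against 78.4% and 87.9% at E15.5. Zic1, a zinc finger transcription factor, had 47.7% and 53.5% at E18.5, against 79.2% and 78.6% at E15.5, and Tfam, the mitochondrial transcription factor, had 29% and 26.4% against 56.1% and 53.8%. In each of these 5 genes the columns of a stage lay closer to each other than the stages did, which the rule that chose them makes likely. Arf4, a small GTPase of membrane traffic, Trp53bp1, a DNA repair protein, and Bmt2 moved by -33.3, -25.8 and -27.8 points.

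**Figure D4:**
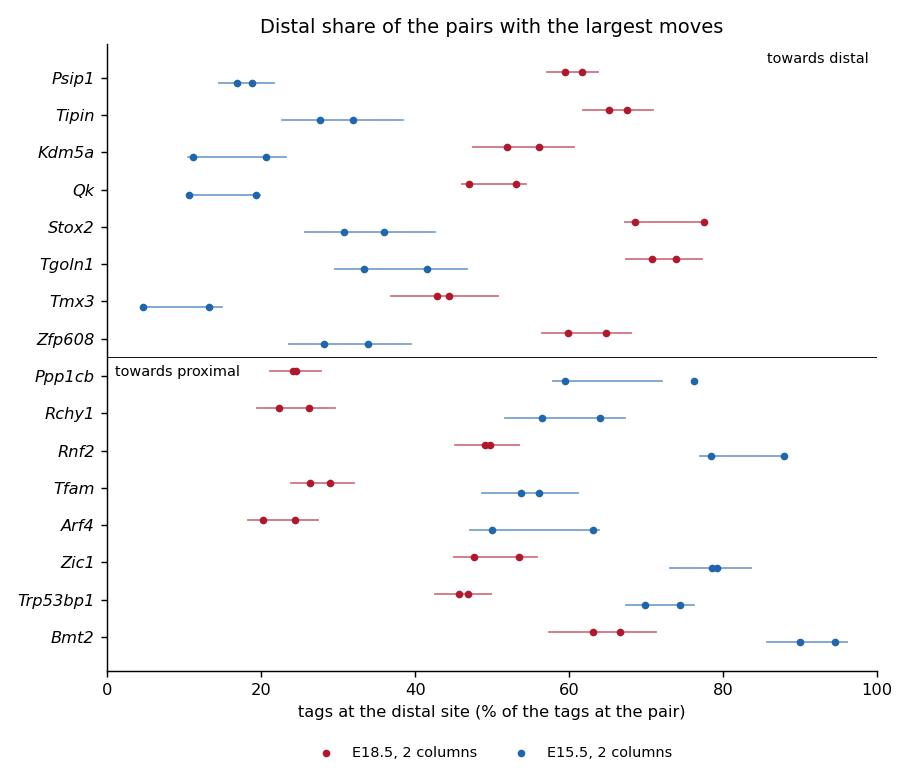
Distal share of the 8 pairs with the largest moves to the distal site (above the line) and to the proximal site (below it), in percent of the tags at the pair. Points are the 2 columns of E18.5 (red, upper) and of E15.5 (blue, lower), and lines are 95% Wilson intervals of the summed tags. No red point overlaps a blue one within a gene, which the rule that chose the pairs makes likely.

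Members of the lists among the 94 movers were 11. The 6 with the largest moves were Ppp1cb, Qk, Elavl1, Sfrp1, Sfrp2 and Prdm1, and the other 5 were Nlgn3, Pax6, Rps3, Ptbp2 and Fmr1, named because the count is small. Of the RNA-binding proteins, 3 moved beside Qk. Elavl1, the HuR protein that binds AU-rich 3′ UTRs, had distal shares of 25.1% and 24.7% at E18.5, against 43.0% and 52.4% at E15.5, and Ptbp2, a neural splicing regulator, 44.5% and 43.1% against 60.4% and 58.5%. Fmr1, which regulates translation, went the other way, with 62.5% and 59.6% at E18.5 and 46.5% and 44.3% at E15.5. Pax6, the eye field regulator, had 43.2% and 40.7% at E18.5, against 27.1% and 22.4% at E15.5, at sites 118 bases apart. The Wnt inhibitors Sfrp2 and Sfrp1 had 67.4% and 75.7% against 49.7% and 36.2%, and 97.3% and 92.8% against 79.6% and 72.9%. Prdm1 had 86.8% and 89.2% against 69.6% and 70.8%, and its distal site lies past the annotated gene end.

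In most movers the site that gained share gained tags, and the other site changed less. Over the 63 distal-moving genes the median log2 ratio was 1.33 at the distal site and -0.25 at the proximal site. Over the 31 proximal-moving genes it was 1.38 at the proximal site and -0.04 at the distal site. At the Psip1 distal site the level was 111 CPM at E18.5 and 20.9 CPM at E15.5, while the proximal site stood at 72.6 CPM and 96.5 CPM. At the Rnf2 proximal site it was 61.9 CPM and 8.85 CPM, while the distal site stood at 60.3 CPM and 42.9 CPM. Sfrp1 and Sfrp2 differed from this: the Sfrp2 distal site had 47.3 CPM and 43.7 CPM, and its proximal site 19.8 CPM and 58.7 CPM. Whole-gene abundance was 2-fold higher for 2 of the 63 and 1 of the 31, and lower for none, beside 0.314% higher over all pairs.

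The gaining site was also the one with fewer G and C. Sequence at both sites was available for 75 of the 94 called pairs (79.8%), so a check over all 94 is void, and the values that follow hold for the 75 alone. The site that gained share had the lower GC content over its last 200 bases in 64 of them, an equal one in 2 and a higher one in 9, with medians of 29% at the gaining and 36% at the other site. Over all 3154 pairs with both values, the distal site had the lower GC content in 63.2%. Of 5 bins by the GC difference, in that with the lowest distal relative to proximal GC content (9 points lower or more), 24 of 684 moved to the distal site and 1 to the proximal site. In the bin at the other end (4 points higher or more), 1 of 615 moved to the distal site and 11 to the proximal site. The part of base composition in these moves was not tested. Among 982 pairs whose sites differed by 3 points or less, 10 moved to the distal and 13 to the proximal site (1.02% and 1.32%).

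The movers were chosen on E18.5 and E15.5, so only the other 4 stages add to the calls. Over the 63 distal movers the median share was 52.4%, 35.6%, 60.5%, 49.2%, 53.9% and 51.3% over the 6 stages in order of age. Over the 31 proximal movers it was 52.5%, 67.7%, 46.2%, 61.7%, 58.3% and 60.4%. At the 4 stages that the rule did not use, the medians thus lay between 49.2% and 53.9% for the distal movers and between 52.5% and 61.7% for the proximal movers. Over all 4142 pairs the medians were 60.3%, 60.1%, 61.3%, 62.4%, 63.2% and 64.8%.

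**Figure D5:**
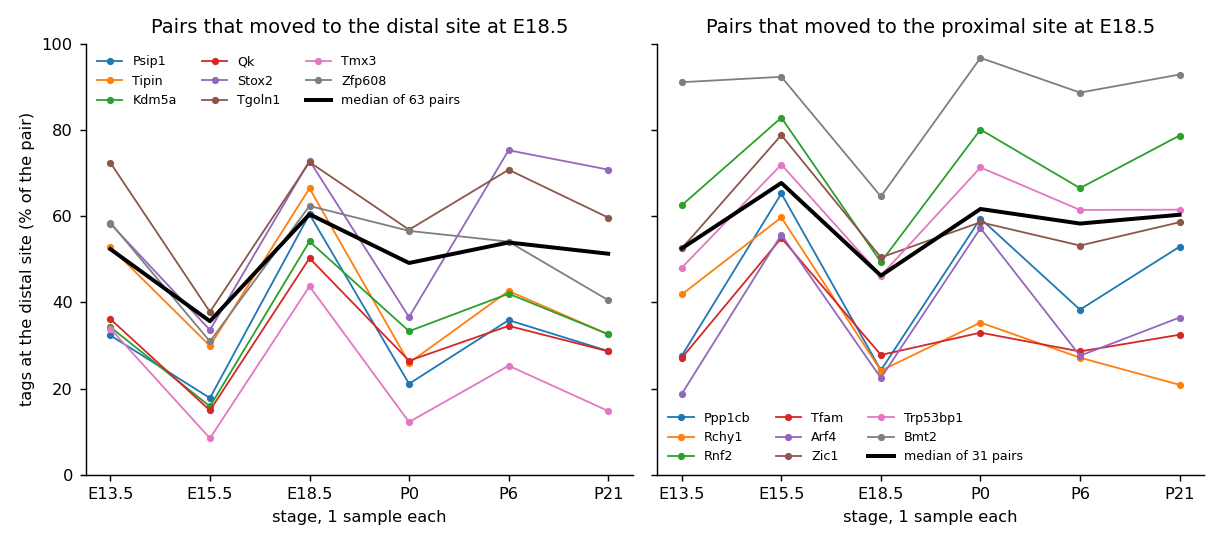
Distal share in percent at 6 stages with 1 sample each, for the 8 pairs with the largest moves to the distal (left) and the proximal site (right); the black line is the median over all 63 and all 31 called pairs. The order of E18.5 and E15.5 is set by the rule that chose the pairs; at the other 4 stages the medians lie between 49.2% and 53.9% on the left and between 52.5% and 61.7% on the right.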

How the data were processed

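The deposited table holds whole-number tag counts at poly(A) sites, with 12 columns (a first and a second one per stage). Per the file headers it also holds an enrichment score, which was not used. The submitters' processing notes name BWA 0.7.5a-r405 and the build mm10 (GRCm38). Clustering, filters, duplicate removal and the meaning of the first and the second column are not given in the sources used here. Per the labels' protocols, sheared RNA was reverse transcribed from an oligo(dT) primer and the libraries kept strand.

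All 32688 sites were placed by their 3′ edge on GENCODE M21 gene models, and 29094 fell in, or at most 1000 bases downstream of, a gene of their strand; 835 lay in more than 1 coding gene. Tags were summed per gene and scaled to CPM with TMM (edgeR 4.0.16, R 4.3.3). An abundance call needed 2-fold, or 1.5-fold in a second rule, in both columns and at least 20 tags in the larger column, with counts under 3 set to 3. The floor of 3 tags is 1.20 to 1.58 CPM in a column. A site call needed 15 points in both columns, 50 tags at the pair in each column and 5% of the gene's tags per site. Ratio intervals are exact (Clopper-Pearson) and share intervals are Wilson. The rules were run on simulated tags with counting error alone and known changes larger than the sizes called. That check does not cover differences between columns beyond counting error, or changes near the called sizes.

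With 1 sample per stage no test was made. Named genes were the 10 higher and 10 lower genes with the largest smaller-of-both-columns change, a mean of at least 20 CPM and no place in the other-cell lists, up to 4 called members per list filled to 2 by level, the 8 largest moves in each direction and up to 6 listed movers; genes with only a clone name were counted and not named unless among the first 3. The comparison, the 29 lists and the rules were chosen with earlier results of these data known. Other scalings (DESeq2 1.42.0), filters and sizes were tried. Genomic sequence was not used, so sites outside annotated exons have no GC content. Values of some genes that the rule names are not reported here.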

Additional observations from a re-analysis of the deposited data

How the results depend on the processing

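No paired analysis was possible because each stage had 1 sample. Of the 682 values recomputed, only those of called genes and pairs were checked for a change of sign, and none changed it. In the first and the second columns alone that sign is set by the call rule. List medians could change sign, as that of the phototransduction list did, from -0.11 summed to 1.43 in the second columns. Higher and lower genes numbered 314 and 107 with DESeq2 size factors, 330 and 105 with total tags, 323 and 105 with TMM without other-cell genes and 295 and 90 without flanks. Of 87 list medians recomputed, 14 in 10 lists moved by more than 1 SD between the medians of the columns. The counts moved with the column, the size and the filter. They were 488 and 265 in the first columns alone, 766 and 227 in the second alone, 797 and 247 at 1.5-fold, 107 and 50 at 3-fold, and 169 and 63 with at least 50 tags. With no filter 435 genes were higher and 212 lower. Without the lowest-GC bin, an alternative chosen after seeing the data, 93 were higher; this also leaves out genes with no GC content (281 of the 317 had one). Centring the ratios within 10 GC bins, also chosen after seeing the data, left 220 higher, of which 207 were called before, and 93 lower. Without genes of the other-cell lists, likewise added, they were 313 and 76.

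Distal and proximal movers numbered 63 and 31. In the first columns alone 86 moved to the distal and 52 to the proximal site, and in the second alone 137 and 69 moved. They were 119 and 62 at 10 points, 25 and 11 at 20 points, 138 and 61 with at least 20 tags, and 20 and 15 with at least 100 tags. With the 3′-most of all sites as distal, 60 moved to the distal and 15 to the proximal site. Pairs within 3 points of GC content, added after seeing the data, gave 10 and 13. The cause of these differences was not tested beyond the sizes and filters themselves. The change in 3′ UTR tags was -0.21 points summed and -0.16 points in the second columns. Of 83 named genes, Trpm1 was no longer called without flanks (summed log2 ratio -1.97), and Slc1a2 passed it in the second columns alone. Calls near 20 tags rest on few molecules, and the spread between retinas of a stage is unknown.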

Other observations

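Transcripts of sex-linked genes, which were not described above, were present at both stages. Xist, the noncoding RNA of the inactive X chromosome, had 102 CPM over the summed columns at E18.5 and 136 CPM at E15.5. Of the Y-linked genes, Eif2s3y had 72.9 and 51.2 CPM, Ddx3y 28.0 and 5.09 CPM, Uty 6.16 and 5.63 CPM and Kdm5d 4.18 and 2.68 CPM at E18.5 and at E15.5. Ddx3y is among the 317 higher genes.

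Abundant genes outside the photoreceptor lists also differed between the columns of a stage. Actb, beta-actin, had 940 CPM in the first and 48.6 CPM in the second column at E18.5, and 1171 and 68.0 CPM at E15.5. Among the 15 genes that differed 2-fold between the columns of E18.5 were Ckb, Pkm, Eno1 and Ccnd1, with log2 ratios of the first to the second column of 5.25, 5.32, 5.84 and 2.71. These values were chosen after they were seen.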
